A study of Mus musculus with 6 samples.

Results

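The S100 genes are a family of small calcium-binding proteins, and one of them, S100a8, was the gene targeted in these cells. The family was described here in mouse RNA-seq libraries of a vector control (control) and of a lentiviral Cas9 knockout of S100a8 (knockout), with 3 libraries in each group. The members were the 10 genes of the deposited table that carry the symbols S100a1, S100a4, S100a6, S100a7a, S100a8, S100a10, S100a11, S100a13, S100a14 and S100a16, chosen by symbol out of 18051 genes. Both groups are labelled as hematopoietic stem cells with no age, sex or strain given, and the labels name no other agent. The study's text places an RNA-seq of lentiviral CRISPR cells for this gene in embryonic fibroblasts after glycyrrhizic acid, a compound of licorice, and its methods describe infection of both stem cells and fibroblasts, so the cell type is given as labelled and the presence of the compound is not known from the labels. It is not stated whether the knockout cells were a clone or a pool, nor whether replicates came from separate cultures, and every p-value is therefore set against a spread among libraries that may be technical only.

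S100 proteins carry a pair of EF-hand loops, which bind calcium, and they usually act as dimers. On binding calcium most of them expose a surface that grips a target protein inside the cell, such as an annexin, a myosin or a tropomyosin. Several are also released and then act on receptors such as Tlr4 and the receptor for advanced glycation end-products, encoded by Ager. S100a8 is best known from neutrophils and monocytes, where its protein is abundant and acts as an inflammatory signal. Most S100 genes lie side by side in a single cluster on mouse chromosome 3.

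The targeted gene is shown first because the comparison rests on it. S100a8 (Entrez 20201) lies on chromosome 3 at 90668978 to 90670035 of GRCm38, the build also called mm10, on the forward strand in the GENCODE annotation, with 3 exons of which 2 are coding. Its 267 coding bases, without the stop codon, are given from the GENCODE transcript with exon parts joined. Capitals mark the parts that match the 2 guides named in the study's methods.
S100a8 coding sequence: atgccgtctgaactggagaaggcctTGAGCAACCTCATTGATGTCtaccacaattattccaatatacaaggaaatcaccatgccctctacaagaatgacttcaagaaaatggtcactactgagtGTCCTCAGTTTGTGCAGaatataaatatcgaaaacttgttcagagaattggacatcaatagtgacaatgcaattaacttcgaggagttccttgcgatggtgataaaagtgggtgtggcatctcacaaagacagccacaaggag
The first capital run, at 90669567 to 90669586, is the reverse complement of the first guide. The second run, at 90669666 to 90669682, holds the last 17 bases of exon 2, which equal the first 17 bases of the second guide. The other 3 bases of that guide would lie past the end of exon 2 and were not checked, since only transcript sequence was used. The first site and the 17 matched bases of the second are in the coding part of exon 2. Which guide was used for these libraries is not given in the labels.

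The upstream sequences of the members with the largest differences are shown next, from the RefSeq table of GRCm38.p6. Capitals mark matches on either strand. The letters TATAAA stand for the box that positions the start of many regulated genes. The letters GGGCGG are those bound by Sp1 and its relatives, called a GC box. The letters TGANTCA, with any base at N, are a loose form of the site of the AP-1 factors of the stress and growth response. The usual site has G or C at N. The CCAAT box and the C/EBP letters TTGCNNAA were searched as well.
S100a8 promoter: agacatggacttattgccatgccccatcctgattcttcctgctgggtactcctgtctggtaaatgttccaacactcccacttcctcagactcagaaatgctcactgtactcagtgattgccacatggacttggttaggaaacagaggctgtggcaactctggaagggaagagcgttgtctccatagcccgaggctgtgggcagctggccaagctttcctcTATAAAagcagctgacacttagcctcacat
S100a16 promoter: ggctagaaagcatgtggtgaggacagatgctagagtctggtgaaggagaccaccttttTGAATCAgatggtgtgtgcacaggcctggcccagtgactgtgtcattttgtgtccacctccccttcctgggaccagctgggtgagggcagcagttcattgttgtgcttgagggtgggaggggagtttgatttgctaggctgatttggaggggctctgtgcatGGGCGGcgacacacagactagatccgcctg
S100a1 to S100a13: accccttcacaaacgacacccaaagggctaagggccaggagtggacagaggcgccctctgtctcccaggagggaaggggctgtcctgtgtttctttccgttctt
The S100a8 stretch is chr3:90668821-90669070 on the forward strand and ends at the base before the RefSeq start. GENCODE places the start of S100a8 further upstream, so the end of this stretch lies in the first exon of that annotation. It holds 1 TATA box, a motif found in 12.4% of all 32851 upstream windows of this length. The S100a16 stretch is chr3:90540896-90541145, upstream of the nearer of 2 RefSeq starts. It holds a match to the loose AP-1 letters (6.75% of windows) and a GC box (32.7% of windows). That match, TGAATCA, has A at N and so is not the usual AP-1 site. The window of the other S100a16 start holds none of the motifs searched. The same letters occur upstream of members whose differences did not pass the test below. The S100a4 window holds a TATA box, and the S100a11 window a match to the loose AP-1 letters and a GC box. The third stretch, chr3:90514331-90514434 on the forward strand, is the 104 bases between the starts that the RefSeq upstream table gives for S100a1 (90514330) and S100a13 (90514435). The full RefSeq gene ranges, which take in every transcript, overlap instead. GENCODE places the start of S100a1 at 90514392, so part of this stretch lies in the first exon of that annotation. By the RefSeq starts S100a1 is transcribed leftwards from the stretch and S100a13 rightwards, and the stretch holds none of the motifs searched. A match is a description of the letters, and whether any factor binds there was not measured.

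S100a8 was listed above 0 only in the control. Its level was 3.67, 1.61 and 3.95 FPKM (fragments scaled to transcript length and to the mapped fragments of the library) in control replicates 1, 2 and 3, and it was listed at 0 FPKM in all 3 knockout libraries. The groups did not overlap, and control replicate 2 lay at less than its companions. On the log2(FPKM + 1) scale S100a8 fell by 1.97 in the knockout (95% interval -2.49 to -1.46, limma adjusted p = 0.000198). The exact two-sided permutation test over the libraries gave p = 0.1, which is the lowest value possible with 3 libraries in each group. S100a8 passed the filter on low values only through its control libraries, and an FPKM of 0 can also be a failed estimate. No fold change is given, and the size of the log2 difference depends on the pseudocount, since it was -4.89 with a pseudocount of 0.1.

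Markers of the cells best known for S100a8 were mostly at or near 0. Of 12 neutrophil and monocyte markers in the table, 8 had a mean under 1 FPKM, and their summed level was 335 to 351 FPKM in control and 7.61 to 7.76 FPKM in knockout libraries, nearly all of it in the control from Lcn2. The level of Lcn2, an iron-siderophore-binding protein also made by other cells, was 329, 326 and 343 FPKM in control libraries and 2.54, 2.48 and 3.16 FPKM in knockout libraries. Of the defining markers, Ly6g lay between 0 and 0.45 FPKM and Itgam between 0 and 0.08 FPKM over all libraries. Ptprc, the leukocyte antigen CD45, and Kit, the stem cell receptor CD117, were listed at 0 in all 6 libraries. Over all 10 blood and stem cell markers, 5 had a mean under 1 FPKM and the summed level was 442 to 460 FPKM in control and 144 to 172 FPKM in knockout libraries, led by Ly6a and Cd34. Schwann cell, melanocyte and cartilage markers summed to 13.1 to 14.2 and 19.9 to 20.8 FPKM. In contrast, none of 10 fibroblast markers had a mean under 1 FPKM, and their summed level was 4354.9 to 4393.5 FPKM in control and 6312.0 to 7037.1 FPKM in knockout libraries, led by Vim and Col1a2. Within that list Dcn, a matrix proteoglycan, fell by 3.57, and Thy1, a surface antigen, had 0 FPKM listed in each control library and 3.70 to 4.18 FPKM in knockout libraries. Ptprc and Kit, the latter the marker by which the study selected its stem cells, were thus not detected in the libraries of either group. Other members of that blood and stem cell list were read. Gata2, Runx1 and Procr averaged 22.7, 6.58 and 7.38 FPKM in control and 11.3, 6.64 and 6.49 FPKM in knockout libraries. In bulk RNA, fewer cells of a type and less RNA per cell cannot be told apart, and the part of any change in cell makeup in the S100 differences was not tested.

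Among the other members, the data show a family divided by level and by direction. S100a4, S100a6, S100a11 and S100a10 were read at 359 to 1779.22 FPKM, and the other 6 members at no more than 14.98 FPKM. S100a1 and S100a13 fell with S100a8, S100a16 and S100a7a rose, and none of the abundant members passed the test. In all, 9 of the 10 members passed the filter (a mean of 1 FPKM or more across all 6 libraries), and S100a14 did not. Of the 9, 3 fell, 2 rose and 4 did not pass an adjusted p of 0.05, where 50.2% of all 11112 tested genes passed, 23.6% higher and 26.7% lower in the knockout. The groups did not overlap for 6 of the 9, against 60.7% of all tested genes. The share of members called was therefore close to that of all tested genes. The median difference over the 9 was 0.06, against -0.02 over all tested genes, and the members ranged from -2.40 to 1.45.

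**Figure D1:**
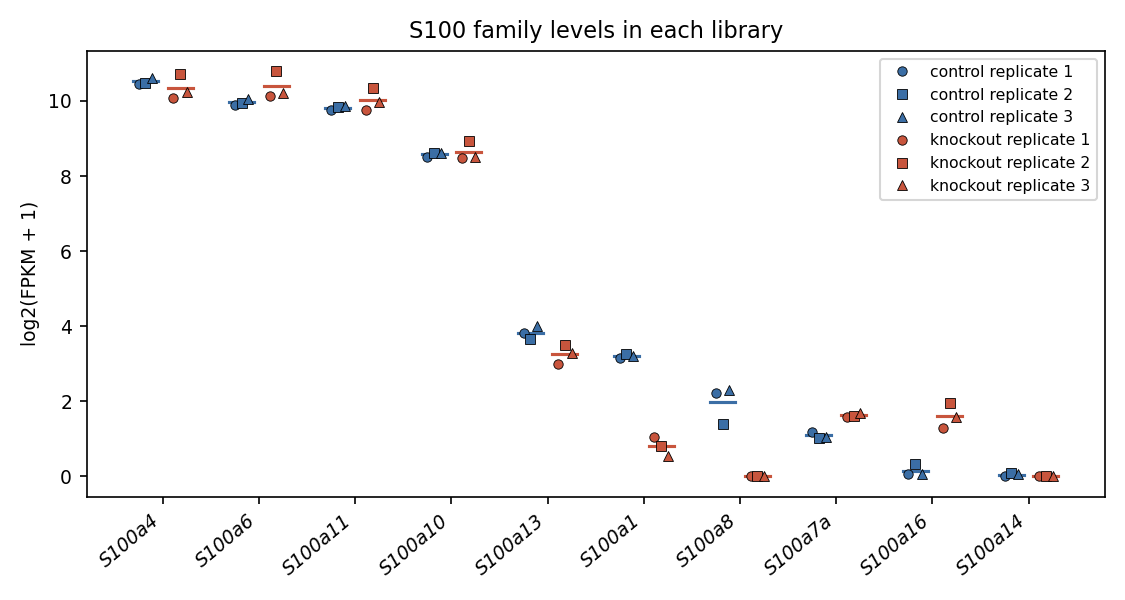
Level of each of the 10 S100 members in each library, as log2(FPKM + 1), with control libraries in blue and knockout libraries in red, a symbol for each replicate number and a bar at the group mean. The 4 abundant members sit near the top in both groups, S100a8 is at 0 in all 3 knockout libraries, and the knockout replicate 2 squares lie above the other knockout libraries for the abundant members.

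S100a1 showed the largest difference of the family on this scale, whereas with a pseudocount of 0.1 S100a8 (-4.89) and S100a16 (3.41) differed by more than S100a1 (-3.34). S100a1 modulates calcium release and uptake through ryanodine receptors and the SERCA pump, and is best known from heart and skeletal muscle. It was read at 7.90, 8.52 and 8.24 FPKM in control and at 1.06, 0.77 and 0.45 FPKM in knockout libraries. Every knockout library lay far below every control library, and the control values were close together while the knockout values varied more for their level. The mean level was 8.22 ± 0.31 FPKM in control and 0.76 ± 0.305 FPKM in knockout (SD, n = 3), and S100a1 fell by 2.40 on the log2(FPKM + 1) scale (SE 0.125, 95% interval -2.69 to -2.11, limma adjusted p = 2.22e-06). S100a1 reached the mean set by the filter only through its control libraries. Muscle markers were at low levels in these libraries. All 7 of those in the table had a mean under 1 FPKM, and their summed level was 2.30 to 3.24 FPKM in control and 0.36 to 0.54 FPKM in knockout libraries, led by Des and Tnnt2, and the part of this in the S100a1 difference was not tested. Of the calcium handling targets of S100a1, Ryr1 and Ryr2 were read at under 0.1 FPKM on average in each group, and Atp2a2, the SERCA pump, fell by 0.42.

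S100a13, which lies next to S100a1 and is read in the opposite direction, fell as well. S100a13 takes part in the release of FGF1 and IL1A, proteins that leave cells without a signal peptide. It was read at 13.02, 11.61 and 14.98 FPKM in control and at 6.95, 10.37 and 8.76 FPKM in knockout libraries. The groups did not overlap, although knockout replicate 2 came near to control replicate 2. S100a13 fell by 0.56 on the log2(FPKM + 1) scale (SE 0.141, 95% interval -0.89 to -0.23, limma adjusted p = 0.0119), from 13.2 ± 1.69 to 8.69 ± 1.71 FPKM (SD, n = 3). The adjusted p of S100a13 ranged from 0.000108 to 0.0498 on leaving out 1 library at a time. By their full RefSeq ranges S100a1 and S100a13 share 98 bases, and the use of strand in counting is not given in the sources used here, so reads from the shared stretch could have been assigned to either.

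S100a16 and S100a7a rose from low levels. S100a16 is a widely expressed member that has been tied to fat cell formation. Its level was 0.05, 0.26 and 0.05 FPKM in control and 1.43, 2.88 and 2.02 FPKM in knockout libraries. The groups did not overlap and S100a16 passed the filter only through its knockout libraries. It rose by 1.45 on the log2(FPKM + 1) scale (SE 0.167, 95% interval 1.06 to 1.84, limma adjusted p = 0.000225), or by 1.28 without knockout replicate 2, its highest library. The size depends on the pseudocount, since the difference was 3.41 with a pseudocount of 0.1.

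S100a7a is the mouse relative of human psoriasin and koebnerisin, known from inflamed skin, and lies next to S100a8 in the cluster. It was read at 1.29, 1.04 and 1.09 FPKM in control and at 1.99, 2.06 and 2.24 FPKM in knockout libraries. The groups did not overlap, and the difference, though small, was much larger than the spread within either group. S100a7a rose by 0.53 (SE 0.0789, 95% interval 0.35 to 0.72, limma adjusted p = 0.000878), from 1.14 ± 0.132 to 2.10 ± 0.129 FPKM (SD, n = 3), and its difference was 0.83 with a pseudocount of 0.1. S100a14, an epithelial member, stood at 0, 0.06 and 0.05 FPKM in the control with 0 listed for every knockout library, and it was not tested. Of 9 epithelial and keratinocyte markers in the table, 8 had a mean under 1 FPKM, with a summed level of 1.80 to 2.36 FPKM in control and 1.19 to 1.41 FPKM in knockout libraries, mostly from Krt10.

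**Figure D2:**
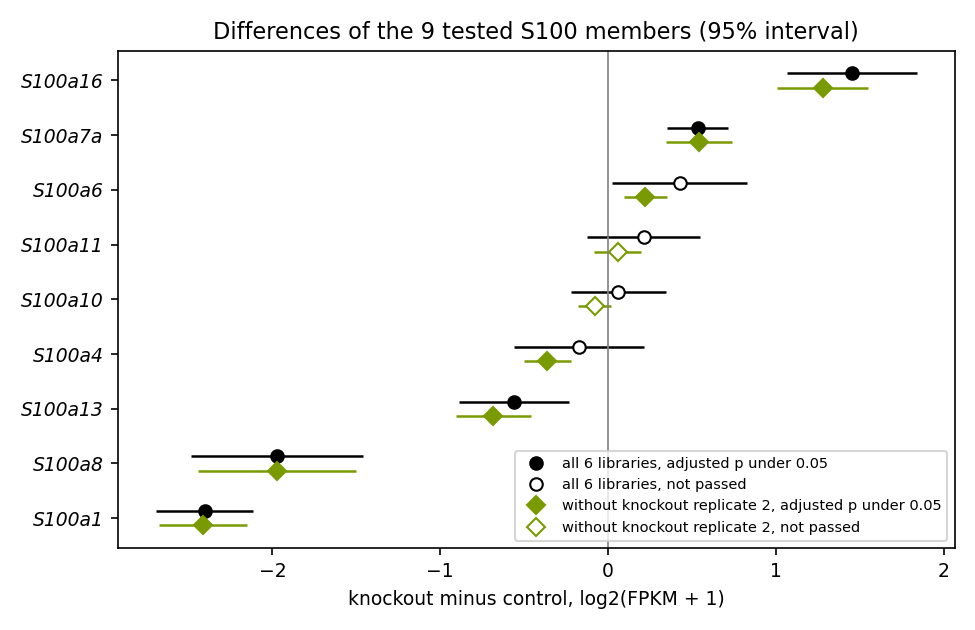
Difference between knockout and control on the log2(FPKM + 1) scale for the 9 tested members, with the 95% interval from limma, for all 6 libraries (black circles) and without knockout replicate 2 (green diamonds). Filled symbols passed an adjusted p of 0.05. S100a1 lies at -2.40 and S100a8 at -1.97 with all libraries and hardly moves, whereas of these fits S100a4 and S100a6 pass only in the one without that library.

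The 4 abundant members made up 99.28 to 99.69% of the summed FPKM of the 10 members in each library. S100a4, also called FSP1 or metastasin, binds nonmuscle myosin and is a common though not specific fibroblast marker. It was read at 1403.8, 1430.66 and 1571.99 FPKM in control and at 1087.39, 1686.62 and 1198.27 FPKM in knockout libraries. Knockout replicate 2 was the highest of all 6 libraries and the other knockout libraries were the lowest. S100a4 was lower by 0.17 (SE 0.167, 95% interval -0.56 to 0.21, adjusted p = 0.421) and did not pass the test. Without knockout replicate 2 it fell by 0.36 (adjusted p = 0.000348), in a fit in which 66.5% of all tested genes passed.

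S100a6, calcyclin, binds Cacybp and Sugt1 and rises in proliferating cells. It was read at 943.82, 979.24 and 1067.35 FPKM in control and at 1129.9, 1779.22 and 1195.4 FPKM in knockout libraries. All knockout libraries lay above all control libraries, and knockout replicate 2 lay far above the rest. With all libraries S100a6 was higher by 0.43 (SE 0.174, 95% interval 0.02 to 0.83, adjusted p = 0.0736) and did not pass the test. Without knockout replicate 2 the estimate was 0.22 and passed (adjusted p = 0.00565).

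S100a11, a partner of annexin A1, was read at 868.28, 908.79 and 926.89 FPKM in control and at 871.58, 1298.37 and 1008.02 FPKM in knockout libraries. The groups overlapped, since knockout replicate 1 fell inside the control range. Its difference was 0.21 (SE 0.145, 95% interval -0.12 to 0.55, limma adjusted p = 0.258). S100a10, or p11, which pairs with annexin A2 and does not need calcium for it, was read at 364.23, 389.20 and 389.32 FPKM in control and at 359.00, 484.28 and 361.24 FPKM in knockout libraries. Again only knockout replicate 2 stood apart. Its difference was 0.06 (SE 0.122, 95% interval -0.22 to 0.34, limma adjusted p = 0.703), and -0.08 without knockout replicate 2. The intervals show how large a change of these members could have been missed.

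Knockout replicate 2 thus carried the highest level of each of the 4 abundant members, at 1.34 to 1.53 times the mean of the other knockout libraries. The same library had the highest sum of FPKM over all genes, 538504 against 467255 to 500518 in the other libraries, and stood apart in its correlations (r = 0.9862 and 0.9897 with the other knockout libraries, against 0.9976 between those, across genes, which are not independent replicates). Its deviation followed transcript length. Relative to the other knockout libraries, the median log2 deviation was 0.115 for the 4149 tested genes whose median GENCODE transcript is at most 1000 bases long and -0.283 for the 736 genes with transcripts over 4000 bases. The 9 tested members have median transcripts of 417 to 801 bases, and their deviations were -0.02 to 0.61 where the knockout libraries were above 0, and the part of this in the S100 differences was not tested. With each library adjusted for transcript length, an alternative chosen after the data were seen, S100a6 passed at 0.42 (adjusted p = 0.0261), and S100a4 did not pass at -0.18 (adjusted p = 0.196).

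Ratios between members of one library do not depend on how the library was scaled. The level of S100a4 divided by that of S100a6 was 1.487, 1.461 and 1.473 in control and 0.962, 0.948 and 1.002 in knockout libraries. The groups were far apart and knockout replicate 2 no longer stood out. S100a11 over S100a6 was 0.920, 0.928 and 0.868 in control and 0.771, 0.730 and 0.843 in knockout libraries, and S100a10 over S100a6 was 0.386, 0.397 and 0.365 in control and 0.318, 0.272 and 0.302 in knockout libraries. In both ratios every knockout library lay below every control library. These ratios were chosen after the levels were seen and are given with no test. The order of the abundant members changed with them. In control libraries S100a4 was first, then S100a6, S100a11 and S100a10, each with a range apart from the next. In knockout libraries the range of S100a4 overlapped those of S100a6 and S100a11, while within a library S100a4 lay above S100a11 in all 3 and below S100a6 in 2 of 3. Lower in the order, each control member down to S100a7a lay apart from the next, with S100a16 and S100a14 overlapping near 0, whereas in the knockout S100a16 and S100a7a overlapped at 2.11 and 2.10 FPKM on average and S100a1 lay below them.

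The position of the genes was then compared with their differences. All 10 members lie on chromosome 3, and 8 of them, with S100a2, S100a3 and S100a5, lie in a cluster that begins 158.0 kb before the start of S100a8, in the order S100a1, S100a13, S100a14, S100a16, S100a3 with S100a2 inside it, S100a4, S100a5, S100a6, S100a7a and S100a8. This order holds only genes of the table. S100a9, which the study describes as pairing with S100a8, is not among them, so its level is not known here. S100a11 (93520488 to 93526287) and S100a10 (93555080 to 93564643, GRCm38) lie further along the chromosome. Neighbours in the cluster moved in different directions. S100a1 (-2.40) and S100a13 (-0.56) fell, S100a16 (1.45) rose, S100a3 (-0.94) fell, S100a4 did not pass, S100a6 did not pass, S100a7a (0.53) rose and S100a8 (-1.97) fell, all as log2 differences.

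Outside the S100 genes, 27 genes of the table start within 1 Mb of S100a8 and 21 were tested. Of these 8 fell and 0 rose by limma, where 26.7% of all tested genes were called lower and 23.6% higher. The counts of these neighbours were the same at an unadjusted p under 0.05, and 13 of them did not pass. Their median was -0.09, against -0.07 over the 539 tested genes of chromosome 3, of which 161 fell and 96 rose. The largest falls were those of Adar, the RNA-editing enzyme, which fell by 1.60 (27.38, 28.01 and 25.27 FPKM in control, 9.13, 7.03 and 8.46 FPKM in knockout libraries), and Il6ra, the interleukin-6 receptor, which fell by 0.93. They lie 954.6 and 799.7 kb before S100a8. Nearer to it, Slc27a3, of the fatty acid transporter family, fell by 0.86 at 283.8 kb, and Ints3, a subunit of the Integrator complex, fell by 0.19 at 277.7 kb. The nearest tested neighbours of the cluster, Chtop, Snapin and Ilf2, had differences of 0.06, 0.11 and -0.02 and did not pass. On the other side of S100a8 the only gene of the table in the window was Pglyrp4, which had a mean of 0.007 FPKM and was not tested.

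**Figure D3:**
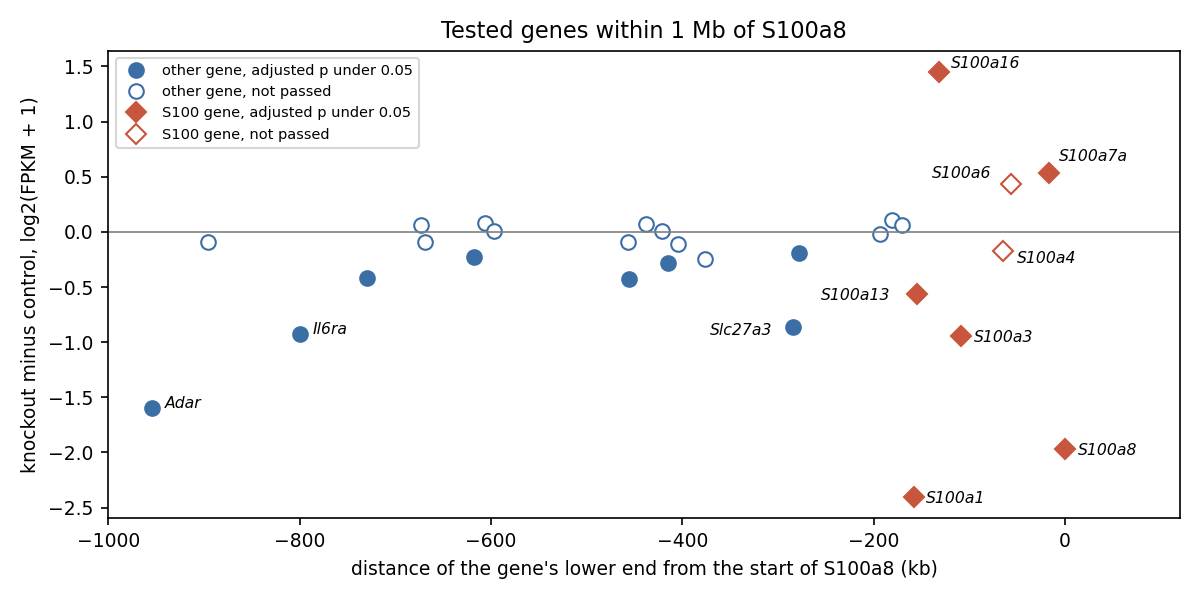
Difference between knockout and control on the log2(FPKM + 1) scale for tested genes within 1 Mb of S100a8, against the distance of the gene's lower end from the start of S100a8 in kb. Red diamonds are S100 genes and blue circles other genes, filled where the adjusted p was under 0.05. The S100 genes spread from -2.40 to 1.45, whereas the other genes lie at or below 0.11.

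Other genes named S100 in the table were few. S100a3, known from hair cuticle, was read at 3.05, 3.44 and 4.23 FPKM in control and at 1.19, 2.01 and 1.03 FPKM in knockout libraries. The groups did not overlap and S100a3 fell by 0.94 (limma adjusted p = 0.00189). By RefSeq position S100a2 lies wholly inside S100a3, and S100a2 was listed at 0 in every library. S100a5, S100b and S100g had values of at most 0.78 FPKM and were not tested. S100pbp, named for binding the human protein S100P and not itself a member of the family, fell by 0.20 (adjusted p = 0.0481), which no longer passed without knockout replicate 3 (adjusted p = 0.0819) or any 1 of the control replicates (0.113 to 0.153), with the replicate number as a block (0.078) and under 5 other settings (0.0565 to 0.202).

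Receptors and partners of the S100 proteins were followed next. Of 8 tested cell-surface receptors, 3 were lower, 3 were higher and 2 missed the threshold, beside 26.7% lower and 23.6% higher over all tested genes. Their median was 0.00. Cd14, a co-receptor of Tlr4 that also marks monocytes, fell by 1.41, and was read at 25.48, 27.07 and 28.49 FPKM in control and at 10.10, 9.23 and 9.28 FPKM in knockout libraries. Tlr4 itself, through which S100a8 acts, fell by 1.05, from 7.13 to 2.95 FPKM on average (adjusted p = 0.000169). Ly96, the third part of that receptor complex, did not pass at -0.09. Alcam, an adhesion receptor, rose by 1.24 and Sort1, a sorting receptor, rose by 1.02. Bsg, a widely expressed surface glycoprotein, averaged 465 FPKM in control and 496 FPKM in knockout libraries and did not pass. Ager was read at 0.623 and 0.640 FPKM and was not tested.

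Annexins, which bind membranes in the presence of calcium, were followed as a list. Of 9 tested, 5 rose (23.6% of all tested genes were called higher), 0 fell by limma, also at an unadjusted p under 0.05, and 4 missed the threshold. Their median was 0.29. With scaling to a common sum or quantile normalization 6 rose and 1 fell, without knockout replicate 2 the counts were 5 and 2, and relative to the gene's chromosome they were 3 and 2. Anxa11 rose by 0.52 (21.57, 24.34 and 22.87 FPKM in control, 31.81, 33.38 and 34.86 FPKM in knockout libraries), a call lost when differences were taken relative to the gene's chromosome (adjusted p = 0.23), and Anxa5 rose by 0.48. The annexins named above as partners of S100a10 and S100a11 did not pass. Anxa2, the partner of S100a10, had a difference of 0.16 (adjusted p = 0.182), and Anxa1, the partner of S100a11, had a difference of -0.15 (adjusted p = 0.189).

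Of 20 tested intracellular and export partners, 7 rose, 6 fell and 7 missed the threshold, where 50.2% of all tested genes were called. Their median was 0.10. Il1a, a cytokine whose release involves S100a13, fell by 1.73 and was read at 2.40, 2.39 and 2.24 FPKM in control and at 0.03, 0 and 0 FPKM in knockout libraries. Il1a passed the filter only through its control libraries, and its difference was -4.48 with a pseudocount of 0.1. Fgf1, the other cargo of S100a13, had a mean under 1 FPKM and was not tested. Plat, the tissue plasminogen activator, whose product plasmin forms at the cell surface with S100a10, fell by 1.17, whereas Plau and Plaur, the urokinase activator and its receptor, rose by 0.84 and 0.76. Of the myosin and actin partners, Myh10 rose by 1.02 and Tpm1 by 0.88, from 1084.3 to 2000.5 FPKM on average, and Myh9, the nonmuscle myosin best known to bind S100a4, did not pass at 0.05. The S100a6 partners Cacybp and Sugt1 rose by 0.29 and 0.57. Sugt1 and Plau lie on chromosome 14 with Anxa11, whose difference of 0.52 was 0.11 relative to its chromosome. The part of this in the differences of Sugt1 and Plau was not tested.

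Of 30 other tested genes of small EF-hand proteins, 13 rose, 7 fell and 10 missed the threshold, again beside 50.2% of all tested genes called. Their median was 0.17. The light chains of myosin lay at both ends. Myl9 rose by 1.60, from 92.98, 92.53 and 91.01 FPKM in control to 254.46, 340.51 and 258.95 FPKM in knockout libraries, and Myl6 rose by 0.81, whereas Myl12b, a near-identical relative of Myl12a with which it can share reads, fell by 0.96. Myl12a itself rose by 0.28 (limma adjusted p = 0.0278), from 437 to 533 FPKM on average, whereas Myl12b went from 194 to 99.9 FPKM. The part of shared reads in these differences was not tested. Cetn2, a centrosome gene, fell by 0.62, and relative to its chromosome its difference was -0.26 (limma adjusted p = 0.0274).

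**Figure D4:**
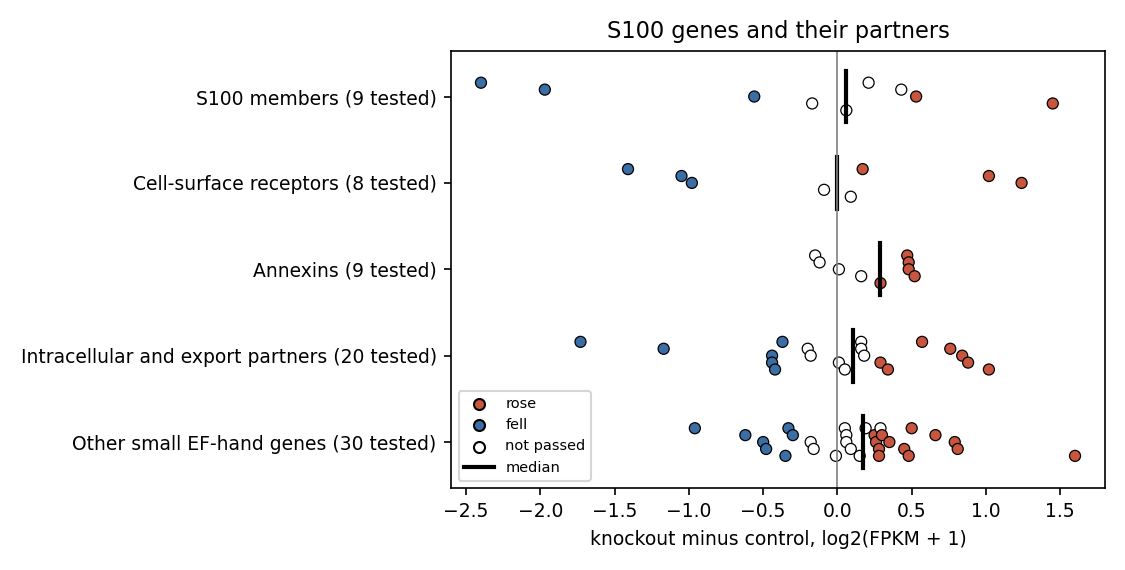
Difference between knockout and control on the log2(FPKM + 1) scale for the tested genes of 5 lists, with a point for each gene, colored by whether it rose, fell or did not pass an adjusted p of 0.05, and a bar at the median. The medians of the lists lie between 0.00 and 0.29, and the S100 members reach the lowest value of these lists, -2.40.

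Genes with a profile like that of S100a8 were ranked over the 6 libraries by the root mean square difference of their log2(FPKM + 1) values from those of S100a8, after each gene's mean was removed. The nearest of the tested genes was the predicted gene Gm35498, at 0.200, with 2.91, 2.16 and 2.91 FPKM in control libraries and 0 FPKM in every knockout library. Sbsn, suprabasin, a secreted protein of the upper epidermis, was at 0.227 and was read at 3.59, 2.22 and 4.12 FPKM in control and at 0.35, 0.50 and 0.42 FPKM in knockout libraries. The predicted gene Gm8909 was at 0.233, with 9.82, 7.65 and 9.98 FPKM in control libraries and 1.13, 1.13 and 1.07 FPKM in knockout libraries. They were chosen on these same 6 libraries, so their likeness to S100a8, library by library, is what the ranking used and no separate finding.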

How the data were processed

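Total RNA from 6 mouse libraries was sequenced on a DNBSEQ platform. Reads were cleaned of adapters and low quality by the authors. HISAT2 2.0.4, Bowtie2 2.2.5 and mm10 are named in the submitters' processing notes. Expression was computed with RSEM according to the methods, and the deposited values are FPKM to 2 decimals for 18051 genes, whose annotation and strand use are not given in the sources used here. Such values hold no counts, so depth is unknown and no counting interval is given. The authors' group means in the table were not used.

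On the log2(FPKM + 1) scale, 11112 genes whose mean FPKM reached 1 were tested by limma 3.58.1 in R 4.3.3 (empirical Bayes, trended variance, group as the only term), with Benjamini-Hochberg adjustment over all tested genes and a threshold of 0.05. The procedure was tested on simulated data. This scale understates changes of low genes. Positions were matched for 17990 genes by Entrez ID in RefSeq (GRCm38.p6), upstream sequences came from RefSeq and the coding sequence from GENCODE M21. RefSeq upstream windows were found for 8 of the 10 members.

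The members and lists were chosen with earlier results of these data known. Besides the 10 members, the text names the other S100 genes, the leading 2 higher and 2 lower genes per list among calls whose groups did not overlap, the 3 nearest profiles and the leading cell type markers. Partners with a known tie to a member, and Slc27a3, Ints3, Myl12a and the cluster's nearest neighbours, were named after their values were seen. Alternatives were TPM, quantile normalization and median-of-ratios scaling, pseudocounts of 0.1 and 0.5, filters at a mean FPKM of 5 or none, an untrended variance, omission of each library, a block for the replicate number, centring by chromosome and, added after the data were seen, adjustment for transcript length. A count-based test was planned only for counts and was not run.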

Additional observations from a re-analysis of the deposited data

How the results depend on the processing

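S100a8 passed under each alternative that tested it, with differences of -4.89 to -1.80. A mean FPKM of at least 5 left only 5 of the members tested, of which 1 passed, against 5 of 9. In that fit 4204 of 8602 tested genes passed. S100a1, S100a7a, S100a8 and S100a16 were no longer tested, and S100a13 kept its call. Of 149 values of single members under 17 alternatives, 141 kept their direction and their side of the threshold, 7 passed where the reported value did not, those of S100a6, S100a4 and S100a11, and 1 reversed, that of S100a10 without knockout replicate 2 (range -0.08 to 0.14 with 1 library left out). S100a6 passed with TPM (adjusted p = 0.0198), quantile normalization (0.00422), length adjustment (0.0261) and without knockout replicate 1 or 2 (0.0365 and 0.00565), and S100a11 with quantile normalization (0.00359); the cause was not tested. Of 302 values of 18 other named genes, 291 kept their side and 11 fell short, those of S100pbp and Anxa11.

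With 1 library left out, 4283 to 7391 genes passed, against 5580, and 5 to 7 members. S100a8 then ranged from -2.27 to -1.80, the locus neighbours from 6 to 10 genes past the threshold and the partner lists from 39 to 56, against 8 and 46. Deviations of libraries with the same replicate number correlated at 0.327, 0.104 and -0.214, so the numbers were not taken as pairs. With the replicate block 5527 genes and 5 members passed, and S100a8 was at -1.97 (adjusted p = 7.8e-05). With quantile normalization 54.8% of the calls were higher in the knockout, against 46.9%. FPKM gives no depth, so limits from counting were not computed.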
